A study of Mus musculus with 12 samples.

Results

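The S100 proteins described here are 9 members of the family of small calcium-binding proteins: S100a1, S100a4, S100a6, S100a10, S100a11, S100a13, S100a14, S100a16 and S100g. They were taken by gene symbol as the family members known from epithelial and connective tissue cells, leaving out the neutrophil pair S100a8 and S100a9. All 9 had a probe set that named no other gene, among 19938 genes measured. Expression was measured in whole jejunum, the part of the small bowel between duodenum and ileum. Wild-type (WT) mice were compared with inducible knockout (KO) mice lacking Fgfr1op, a centrosomal gene whose current symbol is Cep43. There were 6 groups, WT and KO at days 6, 9 and 12 of a scale that the labels call post-tamoxifen, with 2 mice and 2 arrays in each. Gene loss was induced with intraperitoneal tamoxifen, 75 mg/kg daily for 5 days. Not given in the labels are the strain, age and sex of the mice, the recombinase driver, the deleted exons, and whether the WT mice had tamoxifen, a recombinase or KO littermates. The tissue was not separated, so RNA of epithelium, muscle layers, stroma and leukocytes was mixed, and fewer cells of a type cannot be told apart from less RNA per cell.

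S100 proteins are small EF-hand proteins, mostly homodimers, that expose a binding surface when they take up calcium and then dock onto partner proteins. S100A10 is the exception: it no longer binds calcium and forms a standing complex with annexin A2 that gathers plasminogen and membrane proteins at the cell surface. S100G, also called calbindin-D9k, is a monomer that buffers calcium on its way across the absorbing enterocyte and is a classical target of the vitamin D receptor. Most S100 genes lie in one cluster on mouse chromosome 3, with S100g on the X chromosome.

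Promoter sequence is shown for the genes with the largest rises at day 12, for the gene that fell, and for a pair of members that share a start region. The 250 bases before the annotated start were taken from RefSeq for the GRCm38.p6 build, which held windows for 7 of the 9 members (8 windows, since S100a16 has a pair of starts) and none for S100a10 and S100a14. Capitals mark matches, on either strand, to 9 motifs: those of AP-1 (TGANTCA), of TEAD factors (GGAATG), of Sp and KLF factors (GGGCGG), of the cyclic AMP response (TGACGTCA), of the antioxidant response (TGACNNNGC), of NF-kappaB, of the USF E-box (CACGTG), of caudal homeobox factors (TTTATG), and the core promoter box TATAAA. No matches overlapped in the printed windows. The S100a6 window lies at chr3:90612644-90612893 on the plus strand, the S100a11 window at chr3:93520246-93520495 on the plus strand and the S100g window at chrX:162964600-162964849 on the minus strand. The last sequence is the 104 bases at chr3:90514331-90514434, plus strand, between the starts of S100a1, transcribed leftwards, and S100a13, transcribed rightwards.
S100a6: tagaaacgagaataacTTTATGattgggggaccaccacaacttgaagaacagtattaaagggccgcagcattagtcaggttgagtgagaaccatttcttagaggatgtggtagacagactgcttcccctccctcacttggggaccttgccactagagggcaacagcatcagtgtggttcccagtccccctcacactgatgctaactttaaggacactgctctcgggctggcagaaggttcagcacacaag
S100a11: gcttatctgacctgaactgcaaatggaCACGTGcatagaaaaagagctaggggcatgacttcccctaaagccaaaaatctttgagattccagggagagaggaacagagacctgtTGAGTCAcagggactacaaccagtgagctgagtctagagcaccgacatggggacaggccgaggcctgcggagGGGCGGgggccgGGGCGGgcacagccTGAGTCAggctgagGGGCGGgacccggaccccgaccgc
S100g: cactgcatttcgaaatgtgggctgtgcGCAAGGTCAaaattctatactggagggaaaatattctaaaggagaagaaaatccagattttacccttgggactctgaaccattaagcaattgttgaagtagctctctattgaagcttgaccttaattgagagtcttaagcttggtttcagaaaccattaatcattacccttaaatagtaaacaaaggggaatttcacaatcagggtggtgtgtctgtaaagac
S100a1 to S100a13: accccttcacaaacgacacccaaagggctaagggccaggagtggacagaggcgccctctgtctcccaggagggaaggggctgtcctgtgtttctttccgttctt

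The S100a11 window held 2 AP-1 matches, at 136 to 130 and 38 to 32 bases before the start, where 6.7% of all 32851 promoter windows of this length held at least 1 match. It also held 3 GGGCGG matches, at 64, 52 and 24 bases before the start (32.7% of all windows hold that motif), and an E-box at 223 to 218 bases (6.0% of all windows). The S100a6 window held only a TTTATG, at 234 to 229 bases before the start, a motif found in 10.8% of all windows. The S100g window was the poorest in G and C, at 38.4% against a median of 52.4% over all windows, and its only match was to the antioxidant response element on the opposite strand, 223 to 215 bases before the start (10.2% of all windows). The 104 bases between S100a1 and S100a13 held none of the 9 motifs, and were 58.7% G and C. Among the windows not printed, S100a4 held a TATAAA at 31 to 26 bases before its start. The first S100a16 window held an antioxidant response match at 26 to 18 bases, so a gene that rose holds this motif as S100g does. The second S100a16 window held an AP-1 match at 192 to 186 bases and a GGGCGG at 30 to 25 bases. These matches describe letters in a window and say nothing of binding.

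Each value below is the log2 signal of 1 array, as the authors deposited it, so a difference of 1 is a doubling. A difference was called at an adjusted p under 0.05 in limma, adjusted over all 19938 genes by the Benjamini-Hochberg method. The labels name separate mice but no litter, cage or array batch, and p-values measure only the spread between these arrays. Levels of different genes were not set against each other, because probe sets differ in brightness. Across genes, both arrays of each group had a correlation of 0.992 to 0.997. The targeted gene was only slightly lower: Cep43 gave 6.90 and 6.97 in WT and 6.56 and 6.70 in KO mice at day 6, 6.96 and 7.05 against 6.60 and 6.63 at day 9, and 6.83 and 7.04 against 6.97 and 6.74 at day 12. It fell by 0.39 ± 0.11 (SE) at day 9 (limma adjusted p = 0.0184), its groups overlapped at day 12, and whether its probes lie in the deleted part is not stated in the labels. The mean of 10 smooth muscle markers was low in the KO mice at day 6. It lay 1.08 and 1.27 below the mean of all WT mice, where the WT mice of all days ranged from -0.77 to 0.63. Of these 10 genes only Hspb6 passed at day 6, as lower (-1.67), where 0.431% of all genes were called lower. That call was lost in 6 of the 12 fits that left out 1 array. In limma 9 of the 10 had an unadjusted p under 0.05 at day 6, and the median difference was -1.55.

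At day 9, 8 of the 9 S100 genes passed the test, 7 of them higher and 1 lower in KO mice, where 29.7% of all genes passed (12.6% higher, 17.1% lower). With 1 array left out the count at day 9 was 5 to 8, and it was 5 without the second WT mouse or the first KO mouse of that day. At day 12, 6 passed, 5 higher and 1 lower (27.3% of all genes; 13.7% higher). At day 6 only S100a11 passed, as higher (1.03% of all genes; 0.597% higher), and 4 members had an unadjusted p under 0.05. At day 12 S100a6 and S100a11 rose most, S100a16, S100a14 and S100a1 rose by less, S100a10 and S100a13 passed at day 9 only, S100a4 did not pass at any day, and S100g fell. The median difference over the 9 genes was -0.03 at day 6, 0.53 at day 9 and 1.22 at day 12, beside medians over all genes of 0.003, 0.025 and 0.024. Averaged over the days, 7 members passed (32.6% of all genes), 6 of them higher (15.7%) and S100g lower (16.9%); S100a4 and S100a13 did not. The arrays of the 2 genotypes did not overlap for 6 members at day 6 (44.6% of all genes), 9 at day 9 (65.8%, of which 8 with KO higher, 34.6%) and 6 at day 12 (58.2%). KO was above WT at each of the 3 days for S100a6, S100a11 and S100a16 (7.68% of all genes) and below it at each for S100g (6.86%).

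**Figure D1:**
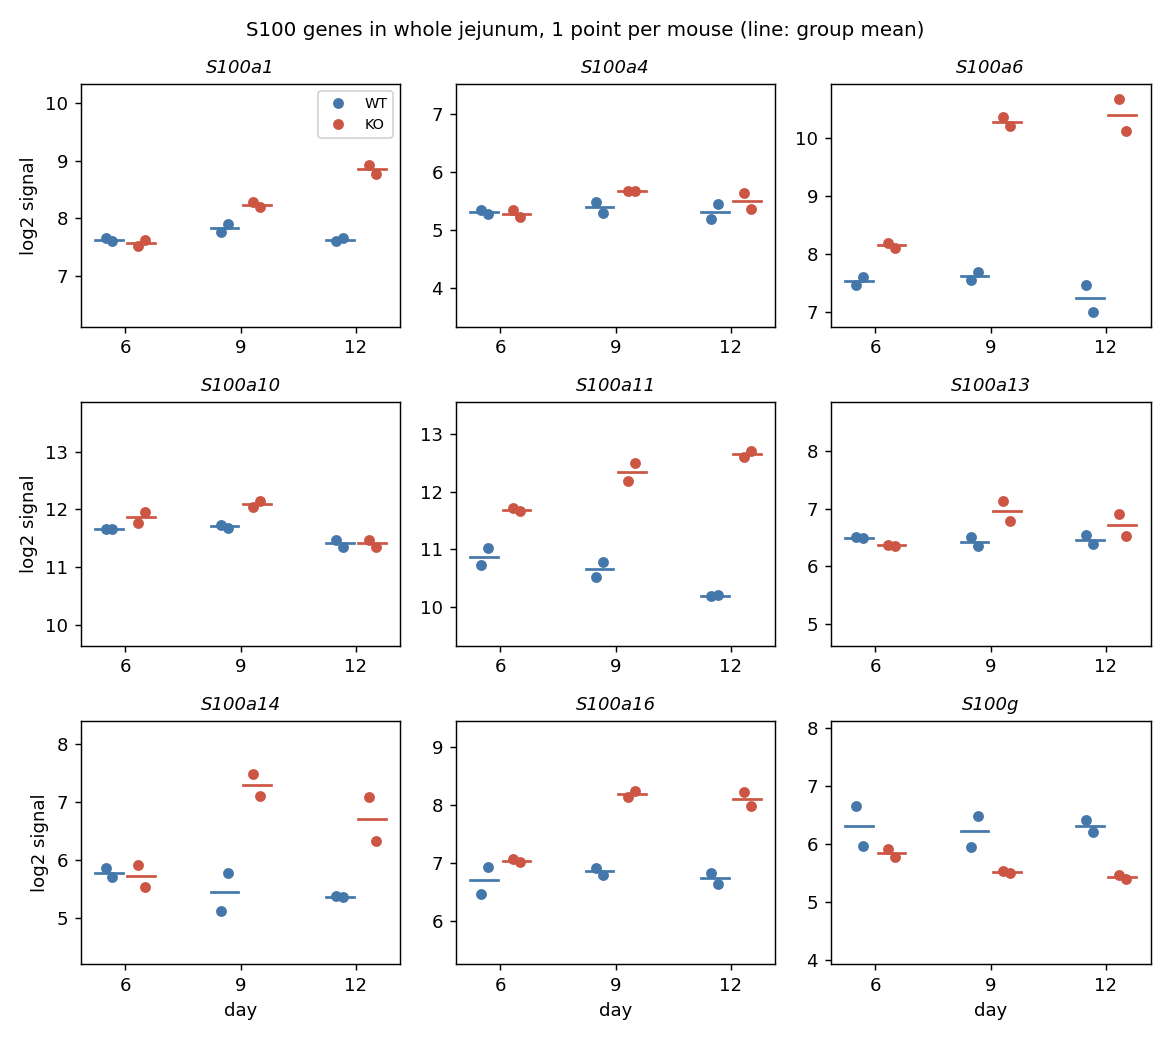
Log2 signal of the 9 S100 genes in whole jejunum (vertical axis, its own range in each panel) by day (horizontal axis), with 1 point per mouse and a line at the mean of the 2 mice of a group. The KO points of S100a6, S100a11 and S100a16 lie above all 6 WT points at every day, and those of S100g lie below all 6 WT points.

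S100A6, or calcyclin, is an S100 protein of epithelial cells and fibroblasts, in particular proliferating ones, that binds calcyclin-binding protein and annexins. In WT mice its log2 signal was 7.47 and 7.61 at day 6, 7.55 and 7.70 at day 9, and 7.47 and 7.0 at day 12. In KO mice it was 8.20 and 8.11 at day 6, 10.36 and 10.21 at day 9, and 10.69 and 10.12 at day 12. All 6 KO arrays lay above all 6 WT arrays, which held for 4.07% of all genes, and the KO mice of days 9 and 12 overlapped with each other. The difference was 0.61 ± 0.18 (SE) at day 6, which did not pass (limma adjusted p = 0.176; 95% interval 0.21 to 1.01). It was 2.67 ± 0.18 at day 9, a 6.35-fold rise (limma adjusted p = 1.43e-06), and 3.17 ± 0.18 at day 12, an 8.97-fold rise (limma adjusted p = 2.7e-07). Most of the change came between days 6 and 9: the difference grew by 2.06 ± 0.26 (limma adjusted p = 0.000616), and by a further 0.50 ± 0.26 to day 12, which did not pass (limma adjusted p = 0.29).

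S100A11, or calgizzarin, binds annexin A1 and acts in membrane repair and in the growth control of epithelial cells. WT mice gave 10.73 and 11.02 at day 6, 10.53 and 10.78 at day 9, and 10.19 and 10.21 at day 12. KO mice gave 11.72 and 11.66 at day 6, 12.18 and 12.50 at day 9, and 12.60 and 12.69 at day 12. It was the one member called at day 6, with all 6 KO arrays above all 6 WT arrays and a KO level that was higher at each later day without overlap. The difference was 0.81 ± 0.13 at day 6 (limma adjusted p = 0.0198), 1.68 ± 0.13 at day 9 (3.21-fold; limma adjusted p = 4.21e-06) and 2.44 ± 0.13 at day 12 (5.43-fold; limma adjusted p = 1.8e-07). It grew by 0.87 ± 0.19 from day 6 to day 9 (limma adjusted p = 0.012) and by 0.76 ± 0.19 from day 9 to day 12 (limma adjusted p = 0.0392). The growth from day 9 to day 12 was lost in 8 of the 12 fits that left out 1 array, and that from day 6 to day 9 without the first WT mouse of day 9. The WT mean was lower at day 12 than at day 6, 10.20 against 10.87, a change over days that did not pass (limma moderated F test, adjusted p = 0.225) but is part of the day 12 difference. The day 6 call was lost when the first WT mouse, the first KO mouse or the second KO mouse of that day was left out, with differences of 0.67 to 0.96 and limma adjusted p of up to 0.183. It was also lost with the smooth muscle mean as a covariate, where the difference was 0.59 (limma adjusted p = 0.593). Another probe set of the same gene gave 0.84, 1.69 and 2.36 at the 3 days, and since a pseudogene of S100a11 is annotated, the 2 probe sets may not be independent readings of this gene alone.

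S100A14 is an S100 protein chiefly of epithelial cells, and its gene is a neighbour of S100a16. S100a16 gave 6.46 and 6.93 in WT mice at day 6, 6.91 and 6.79 at day 9, and 6.83 and 6.64 at day 12. In KO mice it gave 7.06 and 7.01, then 8.13 and 8.23, then 8.22 and 7.98. All 6 KO arrays lay above all 6 WT arrays, and the KO mice of days 9 and 12 overlapped. The difference was 0.34 ± 0.15 at day 6 (limma adjusted p = 0.38), 1.33 ± 0.15 at day 9 (2.52-fold; limma adjusted p = 4.73e-05) and 1.37 ± 0.15 at day 12 (2.59-fold; limma adjusted p = 3.05e-05). The rise from day 6 to day 9 was 0.99 ± 0.21 (limma adjusted p = 0.0101), and from day 9 to day 12 the difference moved by 0.04 ± 0.21 (limma adjusted p = 0.943).

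S100a14 gave 5.86 and 5.71 in WT mice at day 6, 5.13 and 5.78 at day 9, and 5.38 and 5.37 at day 12. KO mice gave 5.92 and 5.54 at day 6, overlapping the WT mice, then 7.48 and 7.12 at day 9 and 7.09 and 6.33 at day 12. The 4 KO arrays of days 9 and 12 lay above all 6 WT arrays, which held for 10.2% of all genes. The difference was -0.06 ± 0.25 at day 6 (limma adjusted p = 0.97), 1.84 ± 0.25 at day 9 (limma adjusted p = 0.000252) and 1.34 ± 0.25 at day 12 (limma adjusted p = 0.00206). No fold is given for S100a14, S100a4 or S100g, whose signals were low. No gene was tested against background here, and the differences of the dimmer genes named below, such as S100a8, S100a9, S100z, Il1a, Tlr4, Trpv6, Plg, Elane, Camp, Mpo and Ngp, all below the 40th percentile of mean signal, carry the same limit. Between days 6 and 9 the difference grew by 1.90 ± 0.36 (limma adjusted p = 0.00636).

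S100A1 is best known from heart muscle, where it regulates calcium release and uptake, and S100A13 carries FGF1 and interleukin-1 alpha out of cells by a route that bypasses the secretory pathway. Their starts lie 104 bases apart, on the sequence printed above. S100a1 gave 7.66 and 7.61 in WT mice at day 6, 7.76 and 7.90 at day 9, and 7.61 and 7.65 at day 12, against 7.53 and 7.63, then 8.28 and 8.20, then 8.93 and 8.77 in KO mice. The groups overlapped at day 6 and were apart at days 9 and 12, with the KO mice highest at day 12. The difference was -0.05 ± 0.10 at day 6 (limma adjusted p = 0.911), 0.41 ± 0.10 at day 9 (limma adjusted p = 0.00708) and 1.22 ± 0.10 at day 12 (limma adjusted p = 2.79e-06). It grew by 0.46 ± 0.13 from day 6 to day 9 (limma adjusted p = 0.044) and by 0.81 ± 0.13 from day 9 to day 12 (limma adjusted p = 0.00863), and the later growth passed with any 1 array left out. The day 9 call was lost without the first WT mouse (0.34; limma adjusted p = 0.0687) or the first KO mouse of that day (0.37; limma adjusted p = 0.0522).

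S100a13, the other gene of this pair, was called at day 9 only. WT mice gave 6.51 and 6.49 at day 6, 6.50 and 6.35 at day 9, and 6.54 and 6.38 at day 12, and KO mice 6.37 and 6.36, then 7.12 and 6.78, then 6.91 and 6.53. At day 6 both KO mice lay slightly below both WT mice, at day 9 both lay above, and at day 12 the groups overlapped. The difference was -0.13 ± 0.14 at day 6 (limma adjusted p = 0.819; 95% interval -0.44 to 0.17), 0.53 ± 0.14 at day 9 (1.44-fold; limma adjusted p = 0.0144) and 0.26 ± 0.14 at day 12 (limma adjusted p = 0.211; 95% interval -0.05 to 0.57). Without the second WT mouse or the first KO mouse of day 9 the call was lost (0.45, limma adjusted p = 0.109; 0.36, limma adjusted p = 0.135). The difference between S100a1 and S100a13 in their response was not tested.

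S100A10, the annexin A2 partner, passed at day 9 only, by a small difference. WT mice gave 11.67 and 11.66 at day 6, 11.74 and 11.68 at day 9, and 11.48 and 11.35 at day 12. KO mice gave 11.77 and 11.95, then 12.05 and 12.15, then 11.47 and 11.35, so the 2 genotypes were apart at days 6 and 9 and lay on top of each other at day 12. The difference was 0.20 ± 0.10 at day 6 (limma adjusted p = 0.46; 95% interval -0.01 to 0.42), 0.39 ± 0.10 at day 9 (1.31-fold; limma adjusted p = 0.0112) and -0.002 ± 0.10 at day 12 (limma adjusted p = 0.991; 95% interval -0.22 to 0.21). The day 9 call was lost without the second WT mouse (0.36; limma adjusted p = 0.0788) or the second KO mouse of that day (0.34; limma adjusted p = 0.0607). The average over days was 0.20 ± 0.06 (limma adjusted p = 0.0193), and it lost its call under quantile normalisation (0.15; limma adjusted p = 0.0677), with the smooth muscle covariate (0.18; limma adjusted p = 0.0524), and without the second KO mouse of day 6 or the second WT mouse of day 9 or 12 (0.16 to 0.19). S100a10 varied over days in KO mice (limma moderated F test, adjusted p = 0.0009).

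S100A4 binds non-muscle myosin IIA and is widely used as a marker of fibroblasts and of some immune cells. WT mice gave 5.35 and 5.28 at day 6, 5.49 and 5.29 at day 9, and 5.19 and 5.45 at day 12, and KO mice 5.35 and 5.22, then 5.67 and 5.67, then 5.65 and 5.36. Only at day 9 were both KO mice above both WT mice, and 65.8% of all genes had groups apart at that day. The difference was -0.03 ± 0.12 at day 6, 0.28 ± 0.12 at day 9 (limma adjusted p = 0.121; 95% interval 0.005 to 0.55) and 0.19 ± 0.12 at day 12 (limma adjusted p = 0.334; 95% interval -0.09 to 0.46). S100a4 was the 1 member whose mean signal lay below the 40th percentile of all genes.

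S100g, the calcium buffer of the enterocyte, was the member that fell. WT mice gave 6.65 and 5.96 at day 6, 5.95 and 6.49 at day 9, and 6.41 and 6.21 at day 12. KO mice gave 5.91 and 5.78, then 5.54 and 5.50, then 5.45 and 5.39. All 6 KO arrays lay below all 6 WT arrays, which held for 4.4% of all genes, although the lowest WT array, 5.95, and the highest KO array, 5.91, were close. The difference was -0.46 ± 0.21 at day 6 (limma adjusted p = 0.409), -0.70 ± 0.21 at day 9 (limma adjusted p = 0.0247) and -0.89 ± 0.21 at day 12 (limma adjusted p = 0.00729). No difference in size between days passed (limma moderated F test of the genotype by day interaction, adjusted p = 0.558; change from day 6 to day 9, 95% interval -0.88 to 0.41). The day 9 call was lost without the second WT mouse (-0.43; limma adjusted p = 0.226) and without either KO mouse of that day (-0.72 and -0.68), and with all probe sets adjusted together (limma adjusted p = 0.0557), and the day 12 call without the first WT mouse of day 12 (-0.79; limma adjusted p = 0.0603). Enterocyte markers moved in the same direction: of 9 measured, 5 were lower and none higher at day 9 (17.1% and 12.6% of all genes). At day 12, 6 were lower and 1 higher (13.7% of all genes in each direction). The part of these markers in the result was not tested.

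**Figure D2:**
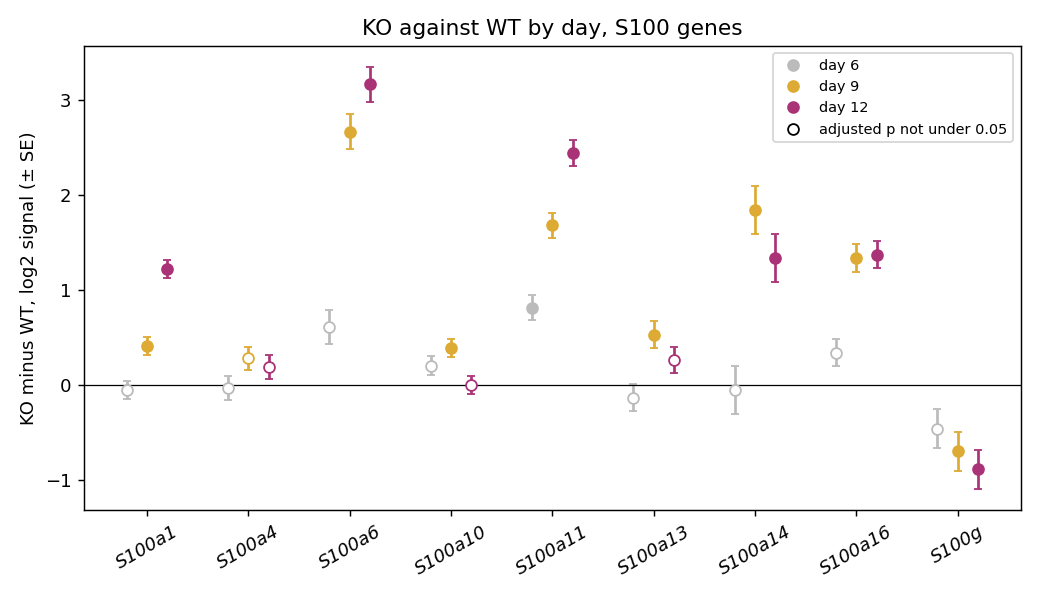
KO minus WT difference in log2 signal (vertical axis, with the standard error as bar) for the 9 S100 genes at days 6, 9 and 12 (colours); open points did not pass an adjusted p of 0.05. S100a6 and S100a11 reach 3.17 and 2.44 at day 12, S100a10 returns to 0 at day 12, and S100g lies below 0 at every day.

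For 5 members the KO minus WT difference varied with the day. The genotype by day interaction passed for 5 of 9 members (limma moderated F test; 18.5% of all genes): S100a1, S100a6, S100a11, S100a14 and S100a16. From day 6 to day 9 the KO minus WT difference grew for 6 members, these 5 and S100a13, at 0.66 ± 0.20 (limma adjusted p = 0.0497), though S100a1 and S100a13 lost that call in 9 of the 12 fits that left out 1 array (12.7% of all genes; 3.52% upward, 9.19% downward). From day 9 to day 12 it grew for S100a1 and S100a11 (6.08% of all genes; 4.06% upward, 2.02% downward). In WT mice the signal passed the test of change over days for none of the 9 (limma moderated F test; 2 had an unadjusted p under 0.05, and 4 genes in all, or 0.0201%, passed), against 7 of 9 in KO mice (37.6% of all genes). Over the 12 arrays, S100a6 tracked S100a16 closely (Pearson r = 0.982) and S100a11 (0.933), while S100a10 and S100a1 did not track each other (-0.14). With the group means taken out, S100a6 and S100a16 had an r of 0.571, and S100a6 and S100a11 one of -0.076. The exact permutation test of the difference averaged over days, which swaps genotype within a day in every possible way and is two-sided, gave p = 0.00926, the smallest it can give, for S100a6, S100a11, S100a16 and S100g. It gave p = 0.037 for S100a14, p = 0.0463 for S100a1, p = 0.0648 for S100a10 and p = 0.12 for both S100a4 and S100a13, in 9 exact permutation tests without adjustment. Any gene with KO above WT at each day, or below it at each day, reaches the smallest value. That held for 7.68% and 6.86% of all genes.

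Genes next to each other in the cluster are set side by side here. In order along chromosome 3, S100a1, S100a13, S100a14 and S100a16 stand together, then S100a3, S100a2, S100a4 and S100a5, then S100a6, S100a7a, S100a8 and S100a9, and S100a11 and S100a10 stand apart further on. S100a6 rose by 2.67 at day 9 between S100a5, at 0.02 ± 0.11 (limma adjusted p = 0.909), and S100a7a, at -0.07 ± 0.13 (limma adjusted p = 0.711). At day 12 these neighbours of S100a6 were at 0.21 and 0.23, and neither passed. S100a11 rose by 1.68 next to Tchhl1, at 0.16 ± 0.09 (limma adjusted p = 0.218), and to S100a10, at 0.39. S100a5, S100a7a and Tchhl1 have mean signals below the 40th percentile of all genes and were not tested against background, so their small differences do not show that these genes stayed unchanged. The other 8 S100 genes with a probe set all lie below that percentile too, and their differences share this limit. Of these 8, 3 were higher at day 9 and none lower (12.6% and 17.1% of all genes): S100a8 by 0.69 ± 0.11 (limma adjusted p = 0.000796), S100a9 by 0.56 ± 0.11 (limma adjusted p = 0.00345) and S100z by 0.40 ± 0.11 (limma adjusted p = 0.0147). The S100z call was lost without the first WT or first KO mouse of that day (0.35 to 0.45). S100a8 and S100a9 together form calprotectin, the abundant protein of neutrophils. At day 12 none of these 8 passed in limma, and none had an unadjusted p under 0.05. Of 6 genes that join an S100 domain to a repeat region of the epidermis, only Tchh passed at day 9 (0.51 ± 0.12; limma adjusted p = 0.00705), and none at day 12 (limma; 1 with an unadjusted p under 0.05). The Tchh call was lost without the second WT mouse of day 9 (limma adjusted p = 0.0846). S100a2, S100a3, S100b, Flg2, Hrnr, Rptn and Crnn lay between 0.03 and 0.28 at day 9 and did not pass.

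**Figure D3:**
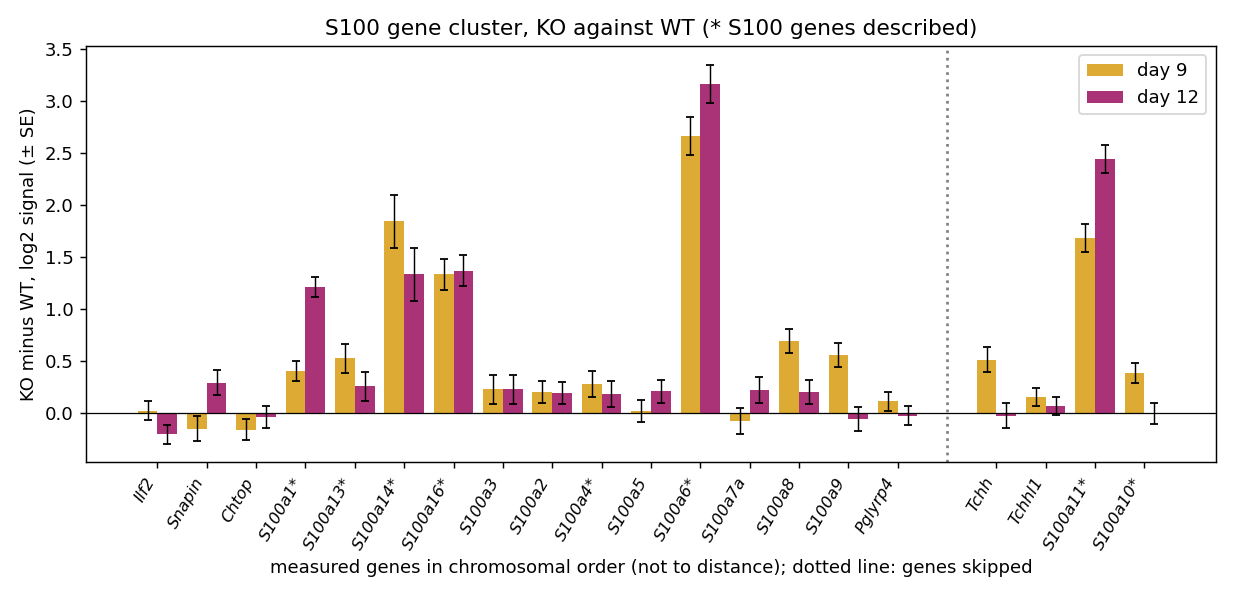
KO minus WT difference in log2 signal with its standard error (vertical axis) at days 9 and 12 for measured genes in their order on chromosome 3 (horizontal axis, not to distance; the dotted line marks skipped genes). At day 9 S100a6 is at 2.67 between S100a5 at 0.02 and S100a7a at -0.07, and S100a11 is at 1.68 before S100a10 at 0.39.

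Partner genes were counted in the same comparisons. Of 10 annexins, scaffold and plasminogen-system genes, 6 were higher and none lower at day 9 (12.6% and 17.1% of all genes), with a median of 0.73 beside 0.025 for all genes. At day 12, 6 were higher and none lower (13.7% of all genes in each direction), with a median of 0.44 beside 0.024. Anxa2, the partner of S100A10, gave 10.96 and 10.89 in WT and 11.35 and 11.31 in KO mice at day 6, 10.77 and 10.83 against 11.78 and 11.78 at day 9, and 10.98 and 10.84 against 11.23 and 11.19 at day 12. Both KO mice lay above both WT mice at every day, and the difference was 0.98 ± 0.09 at day 9 (limma adjusted p = 9.8e-06) and 0.30 ± 0.09 at day 12 (limma adjusted p = 0.0229). The Anxa2 difference shrank from day 9 to day 12 by -0.68 ± 0.12 (limma adjusted p = 0.0119), and its day 12 call was lost without the second WT or the first KO mouse of that day (0.23 to 0.37 over all arrays left out). That of S100a10 moved by -0.39 ± 0.14, which did not pass (limma adjusted p = 0.124). Anxa1, the partner of S100A11, rose by 1.93 ± 0.18 at day 9 and 2.77 ± 0.18 at day 12 (limma adjusted p = 1.32e-05 and 6.23e-07), and Anxa5 by 1.24 ± 0.11 and 1.53 ± 0.11. Plat, the tissue plasminogen activator, rose by 2.63 ± 0.17 at day 9 and 2.36 ± 0.17 at day 12. Plaur, the urokinase receptor, rose by 2.40 ± 0.14 and 2.55 ± 0.14, whereas Plg, plasminogen itself, gave 0.01 ± 0.12 and 0.10 ± 0.12 and did not pass. Ahnak, a giant scaffold that binds the S100A10 and annexin A2 complex, passed at day 9 (0.49 ± 0.14; limma adjusted p = 0.0183) and lost that call without any one of the 4 arrays of that day.

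Among 9 intracellular targets, 2 were higher and none lower at day 9, a share near the 29.7% of all genes, and 3 were higher and 1 lower at day 12 (27.3% of all genes). Myh9, the non-muscle myosin that S100A4 binds, gave 0.95 ± 0.13 (limma adjusted p = 0.000264), and Ppfibp1, a liprin, gave 1.35 ± 0.09 (limma adjusted p = 1.65e-06). At day 12 Ppfibp1 gave 1.39 ± 0.09 and Myh10 0.90 ± 0.12. Myh9 gave 0.38 ± 0.13 there, a call lost in 11 of the 12 fits that left out 1 array, and Ppp5c gave -0.58 ± 0.13, a call lost without the first WT mouse of that day. Cacybp, the calcyclin-binding protein, did not pass at any day (0.20 ± 0.11 at day 9; limma adjusted p = 0.217). Of 6 receptors, none was higher at day 9 and 2 were lower, again near the 29.7% of all genes: Bsg (-0.40 ± 0.10) and the fatty acid receptor Cd36 (-1.85 ± 0.23). The Bsg call was lost without either WT mouse or the first KO mouse of day 9 (limma adjusted p up to 0.085). At day 12, 1 was higher and 1 lower: Tlr4, a receptor of S100A8 and S100A9, was at 0.89 ± 0.13 (limma adjusted p = 0.000264), and Bsg at -0.39 ± 0.10, a call lost without the first WT or second KO mouse of that day. Cd36 did not pass at day 12 (-0.66 ± 0.23; limma adjusted p = 0.0505). Ager, the receptor for extracellular S100 proteins called RAGE, did not pass (0.20 ± 0.12 at day 9; limma adjusted p = 0.241). Of 4 genes for release through S100A13, none passed at day 9 in limma and none had an unadjusted p under 0.05. Fgf1 was at -0.24 ± 0.16 and Il1a at -0.11 ± 0.12 at day 9. At day 12, 1 of these 4 genes was higher and 1 lower (13.7% of all genes in each direction). Il1a fell by 0.47 ± 0.12 at day 12 (limma adjusted p = 0.0115), a call lost without either WT mouse of that day. Sphk1 rose by 0.35 ± 0.09 at day 12 (limma adjusted p = 0.0158), a call lost without either WT mouse or the second KO mouse of that day.

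A list of 14 genes was drawn up for intestinal calcium absorption and the vitamin D system, and not all of them move calcium. Of these, 2 were higher and 4 lower at day 9 (12.6% and 17.1% of all genes). At day 12, 2 were higher and 3 lower (13.7% of all genes in each direction). The median of this list was -0.088 at day 9 and 0.003 at day 12, beside 0.025 and 0.024 for all genes. Vdr, the vitamin D receptor, gave 11.57 and 11.68 in WT and 11.42 and 11.21 in KO mice at day 6, 11.75 and 11.98 against 9.49 and 9.60 at day 9, and 11.66 and 11.67 against 8.65 and 8.95 at day 12. The KO mice lay far below the WT mice at days 9 and 12, by -2.32 ± 0.12 and -2.87 ± 0.12 (limma adjusted p = 2.75e-07 and 3.45e-08). Trpv6, the apical calcium channel, did not pass (0.20 ± 0.14 at day 9; limma adjusted p = 0.297; 0.04 ± 0.14 at day 12). Atp2b1, the calcium pump of the basal membrane, rose by 0.71 ± 0.12 and 1.13 ± 0.12. Cldn15 fell by 1.21 ± 0.10 at day 9 and by 1.44 ± 0.10 at day 12. Cyp3a11, a cytochrome P450 enzyme and not a calcium transport gene, fell by 2.26 ± 0.32 at day 9. It did not pass at day 12 (-0.50 ± 0.32, limma adjusted p = 0.319), and the change between those days passed (1.76 ± 0.46, limma adjusted p = 0.0461). Cldn2, a claudin of leaky junctions, was higher by 0.83 ± 0.16 at day 6, a call lost in 8 of the 12 fits that left out 1 array, and by 0.74 ± 0.16 at day 9 and 1.88 ± 0.16 at day 12.

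**Figure D4:**
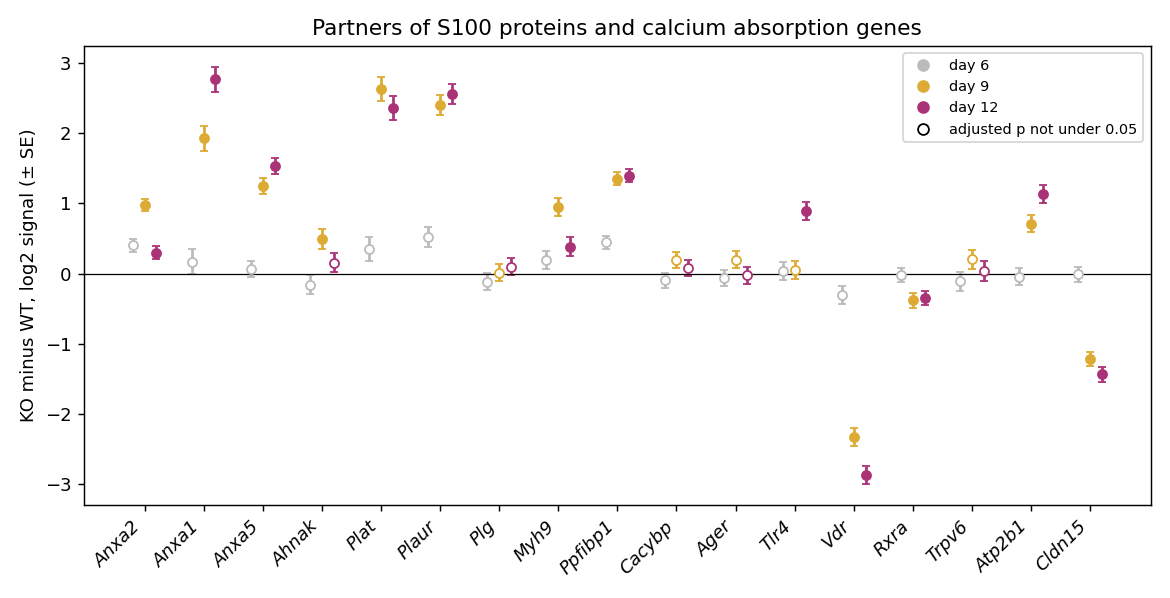
KO minus WT difference in log2 signal with its standard error (vertical axis) for partners of S100 proteins and genes of calcium absorption at days 6, 9 and 12 (colours); open points did not pass an adjusted p of 0.05. Anxa1, Plat and Plaur rise by 1.93 to 2.63 at day 9, and Vdr falls by 2.32.

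Markers of several cell types changed at the same days as the S100 genes, others little, and their part in these results was not tested. Of all genes, 12.6% were higher and 17.1% lower at day 9, and 13.7% higher and 13.7% lower at day 12. The day 9 counts of the myeloid, B cell and plasma cell, endothelial, and glia and neuron lists were near these shares. Of 10 fibroblast markers, 5 were higher and none lower at day 9 and also at day 12 (12.6% and 13.7% of all genes higher). Some of these calls were lost in fits that left out 1 array. At day 9 these were Col3a1 (0.44 to 0.77) and Col6a1 (0.43 to 0.55). At day 12 they were Col1a1 (0.31 to 0.83) and Col1a2 (0.51 to 0.65). Col1a1 gave 1.18 ± 0.18 and Pdpn 0.95 ± 0.15 at day 9, and Pdpn did not pass at day 12 (0.26 ± 0.15; limma adjusted p = 0.253). The fibroblast list mean of the KO mice lay at 0.63 and 0.43 at day 9 and 0.77 and 0.49 at day 12, against -0.36 to 0.21 over the WT mice. Of 10 general epithelial markers, 4 were higher and 1 lower at day 9. Krt18 gave 1.71 ± 0.16 and Krt8 0.84 ± 0.13, Vil1 gave -0.85 ± 0.09, and Epcam did not pass (-0.04 ± 0.11). The Krt19 and Cldn3 calls (0.37 and 0.36) were lost in 2 and 3 of the 12 fits that left out 1 array. At day 12, 3 were higher and 2, Vil1 and Elf3, were lower. Krt8 did not pass there (0.35 ± 0.13, limma adjusted p = 0.0632). The day 12 calls of Cldn3 and Elf3 were each lost in 2 of those fits. The enterocyte list mean of the KO mice was -1.13 and -1.04 at day 9 and -1.67 and -1.25 at day 12. Lct, the lactase of the mature enterocyte, was lower by -5.59 ± 0.19 and -6.32 ± 0.19 and weighs heavily in that mean. The median difference of the 9 enterocyte markers was -0.41 at day 9 and -0.82 at day 12. Apoa4, Fabp1, Fabp2 and Alpi did not pass at day 9 (0.12, -0.09, -0.17 and -0.25). Alpi passed as higher at day 12 (0.42 ± 0.11, limma adjusted p = 0.0147), a call lost without the second WT or second KO mouse of that day. Of 10 neutrophil markers, 4 were higher at day 9, S100a8 and S100a9 included, and 2 at day 12, with Retnlg at both days (1.15 ± 0.23 and 2.60 ± 0.23), while the neutrophil genes Elane, Camp, Mpo and Ngp lay between -0.06 and 0.16 at day 9 and did not pass. Of 9 T cell markers, 5 were lower at day 9 and 6 at day 12, with Gzmb at -2.09 ± 0.28 at day 9. For myeloid markers the counts at day 9 were 2 higher of 10, and at day 12 they were 5 higher and 2 lower. Of 8 B cell and plasma cell markers, 1 was lower at day 9 and 4 at day 12, with Jchain at -1.46 ± 0.18 at day 12. Of 10 endothelial markers, 2 were lower at day 9 and 1 was higher at day 12. Of 8 markers of glia and neurons, 1 was higher at both days: Ret, at 2.21 ± 0.16 and 2.46 ± 0.16. Of 7 adipose markers, 2 were higher and 1 lower at day 9, and 1 higher and 1 lower at day 12, with Lipe the lower one at both days (-1.63 ± 0.12 and -1.72 ± 0.12). At day 9 no smooth muscle marker of 10 passed in limma, none with an unadjusted p under 0.05, and at day 12 none passed, 1 with an unadjusted p under 0.05. With the smooth muscle mean as a covariate the day 9 differences of S100a6, S100a11, S100a16 and S100g were 2.66, 1.69, 1.34 and -0.72. That mean lay at -0.77 and -0.02 in WT and 0.22 and -0.92 in KO mice at day 9. The genotypes thus hardly differed in it on average, and the covariate could move these differences only a little.

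**Figure D5:**
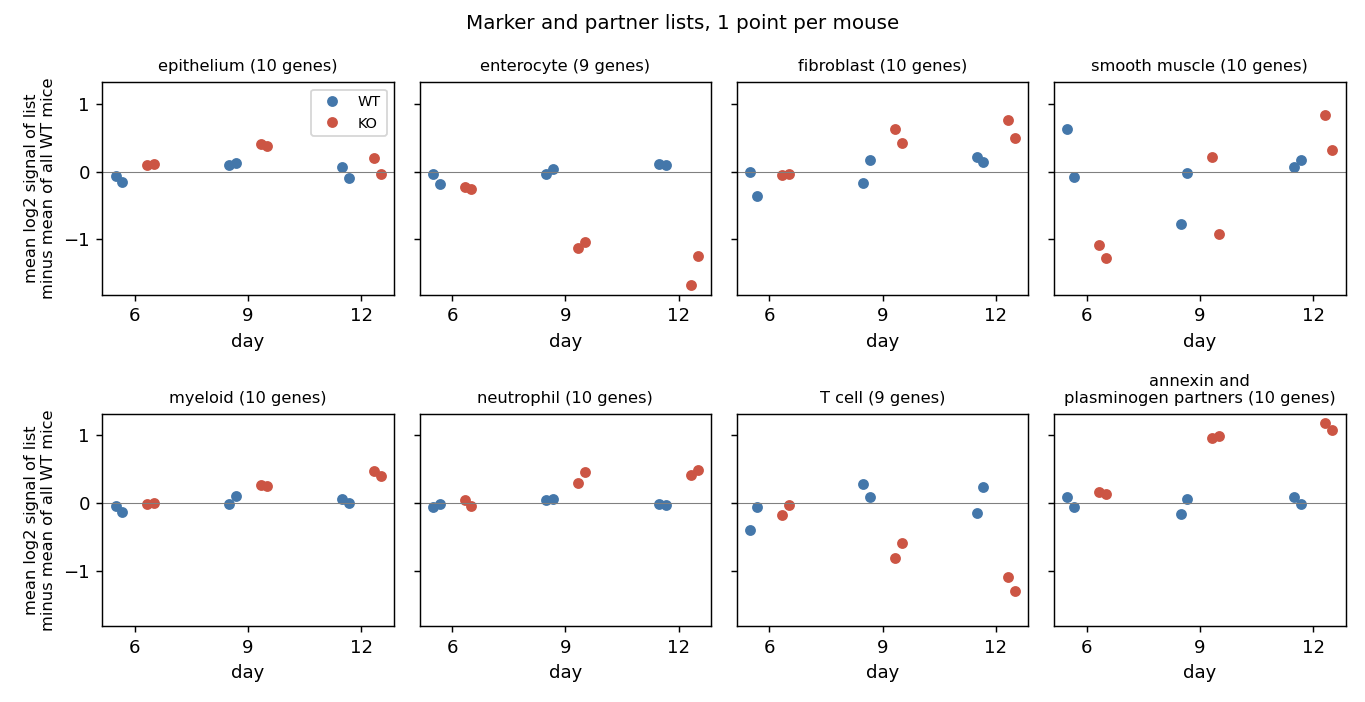
Mean log2 signal of marker and partner lists minus the mean over all WT mice (vertical axis) by day (horizontal axis), with 1 point per mouse. Fibroblast and partner lists are higher and the enterocyte and T cell lists lower in KO mice at days 9 and 12, and the smooth muscle list is low in KO mice at day 6.

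The genes whose pattern over the 12 arrays was most like each called member's were ranked by Pearson's r, which reflects mostly the 6 group means. Predicted genes, unnamed clones, small RNAs, and mitochondrial and olfactory receptor genes were left out of this search. For S100a6 these were Sqstm1 (r = 0.992), Tkt (0.992) and Ffar4 (0.992), and for S100a11 Zwint (0.978), Slfn4 (0.973) and Nsun2 (0.973). For S100a16 they were Tmsb10 (0.991), Mea1 (0.989) and Smurf1 (0.987), and for S100a14 Myl6 (0.975), Sh2d5 (0.969) and Sh3bp4 (0.967). S100a1 was most like Dpysl3 (0.984), Tubb2b (0.978) and Ttc33 (0.975). S100a10, whose pattern peaks at day 9, was most like Traip (0.960), Pabpc6 (0.939) and Klhdc4 (0.930), and S100a13 was most like Drap1 (0.980), Stard3 (0.964) and Rpl24 (0.960). S100g was most like Lratd1 (0.946), Slc14a1 (0.945) and Cyp2c23 (0.927), which fell at day 9 by 0.83, 1.20 and 0.92.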

How the data were processed

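The authors deposited log2 signal values of 35556 probe sets on 12 Affymetrix Mouse Gene 1.0 ST arrays, with array medians of 5.95 to 6.02, and these were used unchanged. Per the submitters' processing notes, limma and R 3.5 were used, with no role stated, and how background and normalisation were handled is not stated in the labels. Platform annotation gave 1 symbol to 21789 probe sets, several to 1621 and none here to 12146; the brightest probe set of a symbol was used, leaving 19938 genes. No filter on low signal was set; 8 of the 9 members passed one at the 40th percentile. A mean per group was fitted over all 12 arrays with limma 3.58.1 in R 4.3.3 (6 residual and 5.23 prior degrees of freedom; two-sided), and the procedure was tested on simulated data. The number of arrays limits precision: the median SE of a day's difference was 0.11, and 2 mice against 2 cannot give an exact permutation p below 0.333. Promoter sequences and gene order came from RefSeq tables.

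The members, the 19 gene lists and the tests were chosen with earlier results of these data known. The genes named were all members, the other S100 genes, and up to 4 called genes per list with the largest day 9 differences. A set of partners was named whether called or not. For each called member the 3 most alike genes were named, among the genes searched. Alternatives were other scalings, filters, probe set choices, moderation, a replicate block, a smooth muscle covariate, single days and each array left out. Replicate numbers were taken as names, because the deviations of mice with the same number correlated at 0.18, -0.09 and 0.113 at the 3 days.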

Additional observations from a re-analysis of the deposited data

Results flagged for a closer look

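For 5 S100 genes the difference between KO and WT mice was not the same at the 3 days, by limma's moderated F test of the genotype by day interaction adjusted over all genes. The adjusted p was 0.000162 for S100a6, whose difference went from 0.61 to 2.67 and 3.17 at days 6, 9 and 12. It was 0.000285 for S100a1 (-0.05, 0.41 and 1.22) and 0.00055 for S100a11 (0.81, 1.68 and 2.44). It was 0.00748 for S100a16 (0.34, 1.33 and 1.37) and 0.00904 for S100a14 (-0.06, 1.84 and 1.34). With the smooth muscle list mean as a covariate the interaction passed for 4 of these genes and not for S100a14. The larger step came between days 6 and 9 for S100a6, S100a16 and S100a14, and between days 9 and 12 for S100a1. For S100a11 the steps were close, at 0.87 and 0.76. Whether the steps of a gene differed was not tested. The same test passed for 18.5% of all genes.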

How the results depend on the processing

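The differences of S100a6, S100a11, S100a14 and S100a16 at days 9 and 12, and of S100a1 at day 12, kept their direction and stayed past the threshold with any 1 array left out. At day 6, 1 member was called, against 0 with all probe sets adjusted together, 0 with the smooth muscle mean as a covariate, 2 with only the 4 arrays of that day (S100a6 and S100a11), and 0 to 1 with an array left out. At day 9 the 8 members called became 5 to 8 with an array left out, and 5 without the second WT mouse or the first KO mouse of day 9. At day 12 the 6 became 5 to 7, and averaged over days the 7 became 6 to 8. The growth of the difference from day 6 to day 9 was called for 6 members, 3 with the covariate and 3 to 6 with an array left out (3 without the first WT mouse of day 9). From day 9 to day 12 it was called for 2, and for 1 under quantile normalisation, 1 with probe sets averaged, 1 with all probe sets adjusted together, and 1 to 2 with an array left out; in the first 3 of these settings S100a1 was the one called. The interaction was called for 5 members, 4 with the muscle covariate (not S100a14) and 5 to 6 with an array left out, the change over days in KO mice for 6 to 8 and in WT mice for 0, and the exact permutation test gave p under 0.05 for 5 to 7. With replicate number as a block, 1, 8 and 6 members were called at days 6, 9 and 12 and 8 on average over days.

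Of the single differences, 6 changed sign under an alternative, 14 values in all, none of them called. At day 6 with the muscle covariate S100a1 gave 0.11, S100a4 0.021, S100a13 0.11, S100a14 0.74 and S100g 0.062. S100a4 at day 6 gave 0.002 under quantile normalisation, and -0.091 to 0.031 with an array left out (0.01 without the first WT mouse). S100a14 at day 6 gave -0.25 to 0.13 with an array left out (0.017 without the first WT mouse). S100a10 at day 12 gave 0.013 with arrays centred, 0.021 with the covariate, and -0.065 to 0.06 with an array left out (0.058 without the second KO mouse). The cause was not tested. No scaling moved the median of all genes by over 0.04.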
